A study of Homo sapiens with 6 samples.

Results

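The 50 genes described here encode the DNA replication machinery: the proteins that mark and license origins, the MCM helicase and the factors that switch it on, the replicative polymerases with primase, the sliding clamp and its loader, the single-strand binding protein, a few fork and chromatin assembly factors, and a pair of E2F transcription factors. They were taken from a list of gene symbols grouped by function. All 50 were found among the 19977 genes of the expression table, and all 50 were among the 12236 that were tested, which averaged 1 TPM or more over the 6 libraries (TPM is a read count per transcript length, scaled to a fixed total per library).

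The RNA came from U2OS cells, a human osteosarcoma line, grown in DMEM with 10% FBS. In the siNUDT5 group the cells had been transfected with an siRNA against NUDT5, an ADP-ribose hydrolase of the Nudix family. In the siCtrl group they had received a non-targeting siRNA. Both groups were otherwise untreated, recovered for 48 hours after transfection, and gave 3 strand-specific mRNA libraries each. Nothing in the sources used here says whether the 3 libraries of a group came from separate cultures, so the p-values measure the spread between libraries, which may be technical. The comparison asks which replication transcripts differ in level between cells given the siRNA against NUDT5 and cells given the non-targeting siRNA. Effects of NUDT5 loss and other effects of that siRNA cannot be told apart in this design.

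Replication begins with licensing. The origin recognition complex (ORC) binds DNA in G1 and, with CDC6 and CDT1, loads the ring-shaped MCM2-7 helicase, while geminin blocks CDT1 once S phase has begun. The kinase CDC7 with its subunit DBF4, and the factors MCM10, CDC45 and GINS, then turn the loaded ring into a moving helicase, behind which primase, the polymerases alpha, delta and epsilon and the PCNA clamp copy the strands. Most of these genes are transcribed at the G1/S transition under E2F control, so their summed mRNA in a culture follows the share of cells in or near S phase as well as the level per cell. In bulk RNA, fewer cells of such a phase and less RNA per cell cannot be told apart.

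The knockdown was present in each siNUDT5 library. NUDT5 had 3.04, 2.74 and 2.67 TPM in siNUDT5 libraries, against 46.2, 49.0 and 52.0 TPM in siCtrl libraries, so 5.74% of the siCtrl mean was left (log2 change -3.71, SE 0.0982, adjusted p = 1.32e-06 by limma). The exact two-sided permutation test gave p = 0.1, the smallest that 3 libraries against 3 allow. Total reads are not given with TPM, but steps between low values put the depth of the siNUDT5 libraries at 89.4, 118 and 105, and that of siCtrl 2 and 3 at 64.1 and 112, on a scale where siCtrl 1 is 100. By this estimate the library siCtrl 2 was the shallowest. The steps reflect reads per transcript length and not total reads, and 72.0 to 81.5% of the low-value ratios to siCtrl 1 were whole numbers. siCtrl 2 also stood apart from siCtrl 1 and 3 along the GC content of the transcripts, as described below. The mesenchymal and osteoblast markers VIM, COL1A1, SPARC and RUNX2 were all present, while COL1A2 was at most 0.39 TPM, and the 5 together summed to 4760 to 4860 TPM in siNUDT5 libraries and 4060 to 4350 TPM in siCtrl libraries. Of 6 markers of other cell types, CD3E and HBB were at 0, and PTPRC, KRT20 and ALB were at most 0.33 TPM in any library. The summed level of those 6 was 5.64 to 5.89 TPM in siNUDT5 libraries and 7.34 to 12.9 TPM in siCtrl libraries, nearly all of it EPCAM, an epithelial adhesion gene, and its part in the results was not tested.

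In the TPM as deposited, most transcripts of the machinery lay near their siCtrl level. PCNA, the clamp itself, rose, and ORC6, the smallest ORC subunit, and SLBP, which binds the stem-loop at the end of histone mRNAs, fell, while 47 of the 50 did not pass the threshold of a Benjamini-Hochberg adjusted p under 0.05 in limma. Those that passed are 6.0% of the genes, against 16.1% of all 12236 tested genes, of which 10.9% were higher and 5.2% lower in siNUDT5. This lower share depended on the scale. Under median-ratio scaling and under quantile normalization 1 member rose and 8 fell. After the GC correction described below 42% of the members passed, against 40.8% of all genes. The members' median log2 change was -0.06 (quartiles -0.14 and 0.03), beside a median of 0.05 over all tested genes (quartiles -0.12 and 0.23). Of the 50 genes, 34 had a negative and 16 a positive log2 change. In 27 of them (54.0%) the change was smaller than 0.1 either way, which held for 31.0% of all tested genes.

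The replication transcripts were well expressed. Group means spanned 13.6 to 589 TPM in siNUDT5 and 17.5 to 454 TPM in siCtrl, with medians of 63.0 and 72.9 TPM, above the medians of 22.8 and 22.1 TPM over all tested genes. The median standard error of the log2 change was 0.096 for the members and 0.119 for all tested genes. Of the 47 genes that did not pass, 43 had a 95% interval for the change that lay inside a 1.5-fold difference in either direction. The other 4 were ORC5, CDC7, POLE2 and E2F2, whose intervals reached down to -0.76 on the log2 scale at the lowest. With the genes that passed included, 88.0% of the members had an interval inside 1.5-fold, against 69.6% of all tested genes. At an unadjusted p under 0.05 there were 11 members (22%), against 31.0% of all tested genes, and the counts at that level given below by role are to be read beside that share.

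Read library by library, 13 of the 50 genes (26.0%) had groups that did not overlap, against 37.3% of all tested genes. PCNA was higher in all siNUDT5 libraries (24.3% of all tested genes were higher in this way). ORC6, MCM6, MCM10, CDC7, PRIM1, FEN1, RPA2, RPA3, CLSPN, CHAF1B, SLBP and E2F2 were lower in all siNUDT5 libraries, which is 12 of 50, where 12.9% of all tested genes were.

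**Figure D1:**
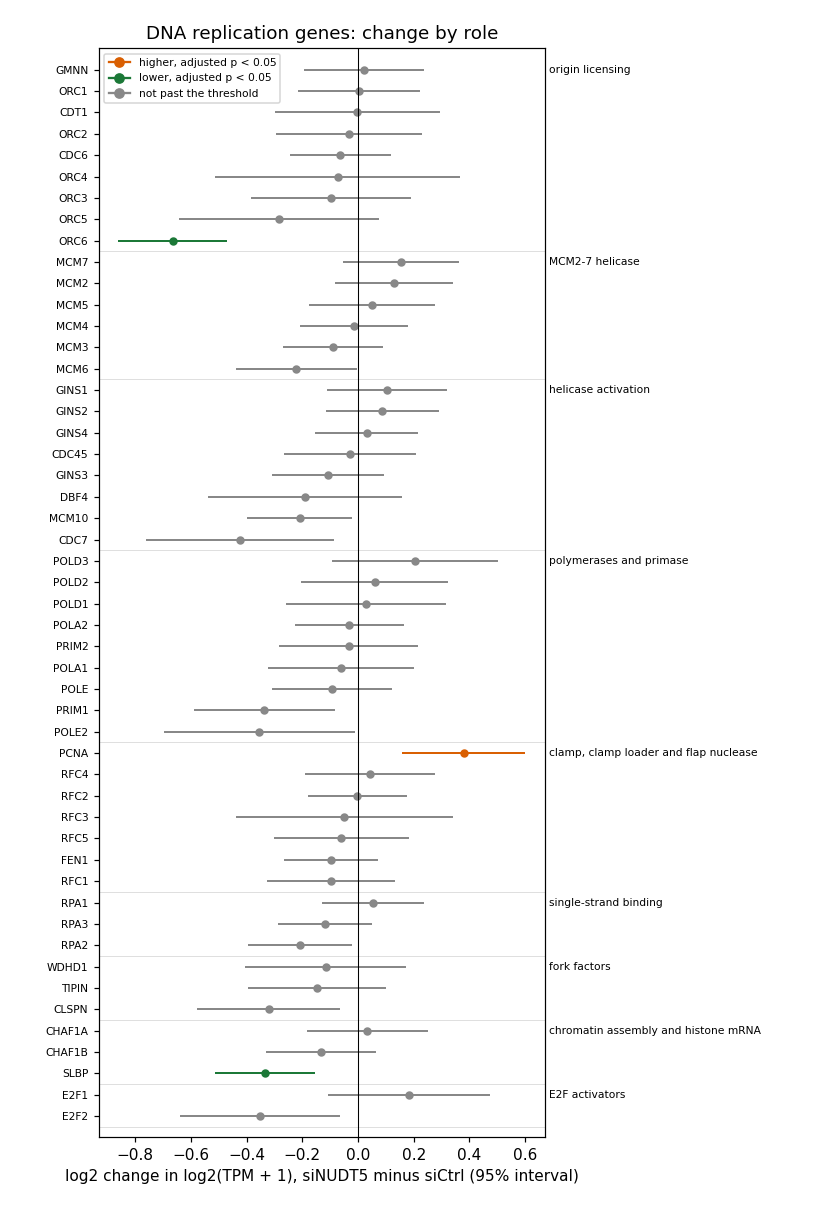
Log2 change of TPM + 1, siNUDT5 minus siCtrl (horizontal axis), for each of the 50 replication genes, grouped by role, with 95% intervals from limma as lines. PCNA at 0.38, ORC6 at -0.67 and SLBP at -0.33 passed the adjusted threshold, and most other points lie close to 0.

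The promoters of the 3 genes that passed are shown because many replication genes are known E2F targets, and the windows of these 3 differ in which E2F and CCAAT letters they hold. The windows run from 250 bases before to 50 bases after an annotated start, 5′ to 3′ on the gene's strand, from RefSeq on GRCh38.p14. Capitals mark the letters searched on both strands: TTTCCCGC, TTTCGCGC, TTTGGCGC and TTTGCCGC for E2F, and CCAAT for the box bound by NF-Y.
ORC6 (chr16:46689409-46689708, plus strand): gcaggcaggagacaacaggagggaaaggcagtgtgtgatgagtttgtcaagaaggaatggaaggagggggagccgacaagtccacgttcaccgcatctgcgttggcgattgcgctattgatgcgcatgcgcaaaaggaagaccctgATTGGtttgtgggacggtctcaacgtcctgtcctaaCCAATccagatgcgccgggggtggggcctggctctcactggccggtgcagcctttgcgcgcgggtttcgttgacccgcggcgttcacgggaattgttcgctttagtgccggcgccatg
PCNA (chr20:5126573-5126872, minus strand): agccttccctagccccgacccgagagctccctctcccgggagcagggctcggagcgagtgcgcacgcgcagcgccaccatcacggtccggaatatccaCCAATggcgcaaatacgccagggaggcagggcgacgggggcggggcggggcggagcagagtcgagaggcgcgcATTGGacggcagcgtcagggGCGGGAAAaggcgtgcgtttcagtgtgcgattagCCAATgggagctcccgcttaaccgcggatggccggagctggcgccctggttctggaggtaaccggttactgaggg
SLBP (chr4:1712270-1712569, minus strand): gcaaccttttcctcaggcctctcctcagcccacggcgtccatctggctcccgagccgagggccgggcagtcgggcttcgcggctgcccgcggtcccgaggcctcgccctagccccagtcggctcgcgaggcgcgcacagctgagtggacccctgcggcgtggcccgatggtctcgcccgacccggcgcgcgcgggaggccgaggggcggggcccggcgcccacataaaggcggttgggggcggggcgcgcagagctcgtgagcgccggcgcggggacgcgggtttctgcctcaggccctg
The ORC6 window holds a pair of CCAAT letters, read as ATTGG on one strand, and no E2F letters. The PCNA window holds 1 E2F match, GCGGGAAA, and 3 CCAAT matches; a further RefSeq start of PCNA has 2 CCAAT matches and no E2F match. The SLBP window holds neither.

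RefSeq windows were matched for 44 of the 50 genes. MCM4, MCM5, GINS4, POLD3, RPA2 and RPA3 were not matched. One of the E2F words stood in the window of 22 of those 44 genes (50%), and in 3.99% of the 27305 genes with a window. By window it was 22 of the members' 55 (40.0%), against 3.31% of all 35116. CCAAT stood in 25 of 44 genes (56.8%), against 39.7% of genes, and in 29 of 55 windows (52.7%), against 34.6% of windows. The median log2 change was -0.06 in the 22 genes with E2F letters, which ran from -0.42 to 0.38, and -0.07 in the 22 others. For CCAAT the medians were -0.06 in the 25 holders and -0.10 in the 19 others. Whether either set of letters goes with the response was not tested. A match is a run of letters and not a measured binding site.

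Among the 9 licensing genes, ORC6 fell and the other 8 did not pass. ORC6 had 50.4, 46.2 and 46.8 TPM in siNUDT5 libraries, against 71.7, 79.1 and 78.4 TPM in siCtrl libraries. The groups were far apart, with the highest siNUDT5 library well below the lowest siCtrl library. The siNUDT5 mean was 47.8 ± 2.25 TPM and the siCtrl mean 76.4 ± 4.09 TPM (SD, n = 3 each), so 62.6% was left (log2 change -0.67, SE 0.084, limma adjusted p = 0.00214). Without any 1 library, the log2 change of ORC6 lay between -0.71 and -0.64, with an adjusted p of at most 0.0227. GENCODE 29 lists no pseudogene of ORC6 and no gene whose exons overlap it.

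The other ORC subunits form the ring that ORC6 joins. ORC1, the subunit whose level cycles, had 42.4, 42.7 and 39.2 TPM in siNUDT5 libraries, against 39.0, 39.6 and 45.5 TPM in siCtrl libraries. Its groups overlapped and its log2 change was 0.005 (SE 0.094). ORC2, ORC3 and ORC4 had log2 changes of -0.03, -0.10 and -0.07. ORC5 had 48.7, 39.7 and 43.1 TPM in siNUDT5 libraries, against 45.6, 68.4 and 48.8 TPM in siCtrl libraries, where siCtrl 2 alone was high (log2 change -0.28, SE 0.155, adjusted p = 0.251).

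Per transcript length, TPM of subunits can be set beside each other. ORC6 supplied 21.3, 21.2 and 21.0% of the summed TPM of the 6 ORC subunits in siNUDT5 libraries, against 30.0, 25.8 and 29.4% in siCtrl libraries. It was the most abundant ORC transcript in each of these 6 libraries. The ORC sum was 226 ± 9.14 TPM in siNUDT5 and 271 ± 34.1 TPM in siCtrl (SD, n = 3 each), and the spread in siCtrl came mainly from the 307 TPM of siCtrl 2. The ratio of the most to the least abundant subunit, taken on group means, was 2.69 in siNUDT5 and 3.97 in siCtrl.

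**Figure D2:**
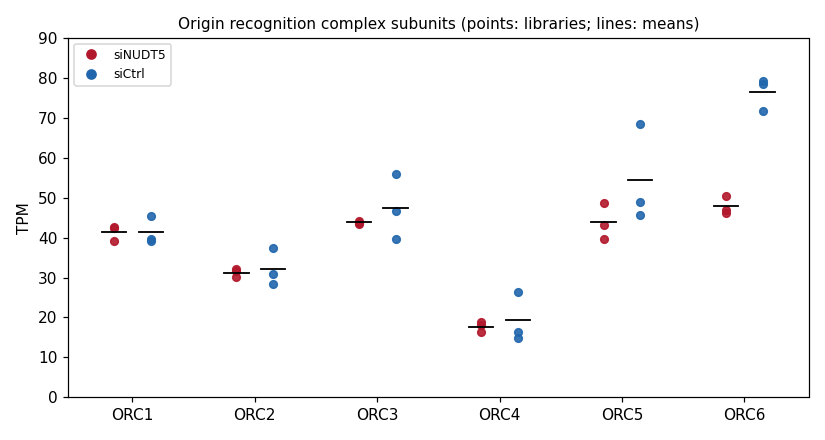
TPM of each of the 6 ORC subunits (vertical axis) in each library as points, with siNUDT5 left of siCtrl and lines at the group means. ORC6 lies at 46.2 to 50.4 TPM in siNUDT5 and at 71.7 to 79.1 TPM in siCtrl, and the points of the other subunits overlap between the groups.

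The loading factors stayed close to siCtrl. CDC6, the ATPase that closes the loading complex, had 144, 140 and 144 TPM in siNUDT5 libraries, against 142, 160 and 147 TPM in siCtrl libraries, with overlapping groups (log2 change -0.06, 95% interval -0.24 to 0.11). CDT1, which carries the MCM ring to the origin, had 45.8, 51.3 and 44.2 TPM in siNUDT5 libraries, against 53.6, 39.0 and 49.99 TPM in siCtrl libraries. siCtrl 2 was the lowest and siCtrl 1 the highest of the 6, and the log2 change was -0.003 with an interval of -0.30 to 0.29. GMNN, which encodes the CDT1 inhibitor geminin, averaged 74.7 TPM in siNUDT5 and 73.8 TPM in siCtrl (log2 change 0.02).

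The 6 genes of the MCM2-7 ring are needed in equal parts in the helicase, and none of them passed the limma threshold (1 had an unadjusted p under 0.05). Their summed level was 1156, 1222 and 1110 TPM in siNUDT5 libraries, against 1156, 1116 and 1190 TPM in siCtrl libraries. Those ranges overlap, with means of 1163 ± 56.0 TPM in siNUDT5 and 1154 ± 37.2 TPM in siCtrl (SD, n = 3 each). Within the ring the transcripts were uneven: the most abundant exceeded the least abundant 2.77-fold in siNUDT5 and 2.72-fold in siCtrl.

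MCM7 was the most abundant of them. It had 322, 353 and 310 TPM in siNUDT5 libraries, against 309, 266 and 310 TPM in siCtrl libraries (log2 change 0.16, interval -0.05 to 0.36, adjusted p = 0.275). MCM6 had 123, 121 and 112 TPM in siNUDT5 libraries, against 127, 154 and 136 TPM in siCtrl libraries. The MCM6 groups did not overlap, though siNUDT5 1 and siCtrl 1 were close, and its log2 change of -0.22 had an adjusted p of 0.146. MCM4 averaged 227 ± 9.14 TPM in siNUDT5 and 229.6 ± 18.9 TPM in siCtrl (SD, n = 3 each; log2 change -0.01). MCM2, MCM3 and MCM5 had log2 changes of 0.13, -0.09 and 0.05.

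Of the 8 genes that activate the helicase, none passed in limma and 2 had an unadjusted p under 0.05. CDC7, the kinase that phosphorylates the MCM ring, had 22.8, 18.7 and 19.7 TPM in siNUDT5 libraries, against 25.0, 34.5 and 24.4 TPM in siCtrl libraries. The groups did not overlap, and siCtrl 2 was well above the other siCtrl libraries (log2 change -0.42, SE 0.146, adjusted p = 0.0856). DBF4, its activating subunit, had 84.0, 64.5 and 68.5 TPM in siNUDT5 libraries, against 69.2, 100.4 and 79.8 TPM in siCtrl libraries (log2 change -0.19, adjusted p = 0.434). The DBF4 groups overlapped.

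MCM10, which binds the activated helicase, had 73.7, 69.9 and 70.1 TPM in siNUDT5 libraries, against 77.4, 85.0 and 85.4 TPM in siCtrl libraries. Its groups were apart by a few TPM (log2 change -0.21, SE 0.080, adjusted p = 0.116). CDC45, which rides with MCM2-7 and GINS in the moving helicase, averaged 98.1 ± 12.1 TPM in siNUDT5 and 99.6 ± 2.37 TPM in siCtrl (SD, n = 3 each; log2 change -0.03). The GINS subunits GINS1, GINS2, GINS3 and GINS4 had log2 changes of 0.10, 0.09, -0.11 and 0.03. Their sum was 201 ± 7.54 TPM in siNUDT5 and 196 ± 6.72 TPM in siCtrl (SD, n = 3 each).

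Among the 9 polymerase and primase genes, none passed in limma and 2 had an unadjusted p under 0.05. PRIM1, the catalytic subunit of primase, had 169, 145 and 148 TPM in siNUDT5 libraries, against 176, 224 and 186 TPM in siCtrl libraries. The groups did not overlap, with siNUDT5 1 and siCtrl 1 nearest to each other (log2 change -0.34, SE 0.109, adjusted p = 0.0703). Its exons overlap those of NACA on the same strand in GENCODE 29, so reads could be split between them. The same limit holds for POLA2, POLD1, POLD3, FEN1, TIPIN and CHAF1B, which also have listed same-strand exon overlaps. Opposite-strand exon overlaps are listed for PRIM1, ORC2, ORC4, MCM2, MCM7, GINS2, GINS3, GINS4, DBF4, RFC4, RFC5, FEN1, RPA1, RPA3, CLSPN and CHAF1A. They matter if reads were counted without regard to strand, and the strand setting is not known. DBF4, POLD2, RFC3, RFC5 and FEN1 each have a listed pseudogene. PRIM2, the partner of PRIM1, averaged 145 TPM in siNUDT5 and 149 TPM in siCtrl (log2 change -0.03). POLA1 and POLA2, of the polymerase that extends the primers, had log2 changes of -0.06 and -0.03.

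POLD1 and POLD2, the catalytic and an accessory subunit of the lagging-strand polymerase delta, had log2 changes of 0.03 and 0.06. POLD3, another accessory subunit, had 30.6, 26.8 and 27.2 TPM in siNUDT5 libraries, against 21.5, 29.3 and 22.8 TPM in siCtrl libraries. siCtrl 2 lay among the siNUDT5 values while siCtrl 1 and 3 lay below them all (log2 change 0.21, SE 0.129, adjusted p = 0.316). POLE, the catalytic subunit of the leading-strand polymerase epsilon, averaged 19.0 ± 0.29 TPM in siNUDT5 and 20.4 ± 1.47 TPM in siCtrl (SD, n = 3 each; log2 change -0.09).

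POLE2, its second subunit, had 65.8, 60.3 and 60.1 TPM in siNUDT5 libraries, against 65.2, 101 and 76.5 TPM in siCtrl libraries. The groups overlapped through siCtrl 1, and siCtrl 2 was the highest of all 6 (log2 change -0.35, SE 0.148, adjusted p = 0.144).

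In the group of the clamp, its loader and the flap nuclease, PCNA rose and the other 6 did not pass. PCNA, the ring that holds the polymerases on DNA, was the most abundant of the 50 transcripts. It had 625, 586 and 555 TPM in siNUDT5 libraries, against 402, 504 and 456 TPM in siCtrl libraries. Each siNUDT5 library was above each siCtrl library, with siCtrl 2 the nearest. The means were 589 ± 34.8 TPM in siNUDT5 and 454 ± 50.9 TPM in siCtrl (SD, n = 3 each), or 130% of siCtrl (log2 change 0.38, SE 0.095, limma adjusted p = 0.0308). PCNA no longer passed when siCtrl 1, siCtrl 3 or any 1 siNUDT5 library was left out, with an adjusted p of up to 0.126, while the log2 change stayed between 0.29 and 0.46. GENCODE 29 lists 3 PCNA pseudogenes, and no source used here says how reads shared with them were assigned.

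The loader that opens the clamp did not follow PCNA past the threshold. RFC2 averaged 146 ± 4.97 TPM in siNUDT5 and 146 ± 6.96 TPM in siCtrl (SD, n = 3 each), with a log2 change of -0.002 and an interval of -0.17 to 0.17. RFC1, RFC3, RFC4 and RFC5 had log2 changes of -0.10, -0.05, 0.04 and -0.06. The sum of the 5 RFC transcripts was 445.5 ± 18.0 TPM in siNUDT5 and 458.5 ± 47.1 TPM in siCtrl (SD, n = 3 each). FEN1, the nuclease that trims the flaps of Okazaki fragments, had 202, 199 and 185 TPM in siNUDT5 libraries, against 215, 204 and 209 TPM in siCtrl libraries. Its groups lay next to each other without overlap (log2 change -0.10, adjusted p = 0.404).

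The single-strand binding protein RPA consists of 3 subunits, and none passed in limma (1 had an unadjusted p under 0.05). RPA2 had 119.6, 127 and 117 TPM in siNUDT5 libraries, against 133, 149 and 138 TPM in siCtrl libraries. The groups were apart (log2 change -0.21, SE 0.080, adjusted p = 0.118), and GENCODE 29 lists 3 RPA2 pseudogenes. RPA3 had 95.2, 97.5 and 99.3 TPM in siNUDT5 libraries, against 102, 108 and 107 TPM in siCtrl libraries (log2 change -0.12, adjusted p = 0.308). RPA1, the large subunit, averaged 82.6 ± 1.55 TPM in siNUDT5 and 79.6 ± 3.94 TPM in siCtrl (SD, n = 3 each; log2 change 0.05). RPA1 made up 27.5 ± 0.40% of the RPA sum in siNUDT5 and 24.5 ± 0.25% in siCtrl (SD, n = 3 each).

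The 3 fork factors all had negative changes and none passed in limma (1 had an unadjusted p under 0.05). CLSPN, the claspin mediator between the fork and the checkpoint kinase CHK1, had 53.8, 45.0 and 43.5 TPM in siNUDT5 libraries, against 54.7, 65.2 and 58.4 TPM in siCtrl libraries. The groups did not overlap, but siNUDT5 1 and siCtrl 1 differed by less than 1 TPM (log2 change -0.32, SE 0.110, adjusted p = 0.0855). TIPIN, of the fork protection complex, averaged 64.7 ± 2.77 TPM in siNUDT5 and 72.1 ± 9.56 TPM in siCtrl (SD, n = 3 each; log2 change -0.15). WDHD1, which links the helicase to polymerase alpha, had a log2 change of -0.12, and siCtrl 2 at 75.2 TPM was its highest library.

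SLBP, needed for the processing and translation of the histone mRNAs made in S phase, was the third gene to pass. It had 61.0, 62.0 and 58.7 TPM in siNUDT5 libraries, against 75.0, 79.6 and 75.3 TPM in siCtrl libraries. The groups were far apart relative to their spread, with means of 60.5 ± 1.70 TPM in siNUDT5 and 76.6 ± 2.55 TPM in siCtrl (SD, n = 3 each), or 79.0% of siCtrl. The log2 change was -0.33 (SE 0.077, limma adjusted p = 0.0223). Without siCtrl 3 or any 1 siNUDT5 library it no longer passed (adjusted p up to 0.111), with a log2 change between -0.35 and -0.31. CHAF1B and CHAF1A, subunits of the CAF-1 chaperone that deposits histones behind the fork, had log2 changes of -0.13 and 0.03. CHAF1B averaged 20.5 ± 0.27 TPM in siNUDT5 and 22.5 ± 0.81 TPM in siCtrl (SD, n = 3 each) without overlap, and its adjusted p was 0.326.

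The activator E2Fs drive transcription of many of the genes above. Of them, E2F1 and E2F2 are among the 50, and neither passed in limma (1 had an unadjusted p under 0.05). E2F3, another activator, is outside the 50 and is given below. E2F1 had 58.4, 61.8 and 55.2 TPM in siNUDT5 libraries, against 60.5, 42.9 and 52.0 TPM in siCtrl libraries. Its groups overlapped and siCtrl 2 was the lowest (log2 change 0.18, SE 0.126, adjusted p = 0.366). E2F2, the least abundant of the 50 genes in siNUDT5, had 14.8, 14.4 and 11.5 TPM in siNUDT5 libraries, against 18.2, 15.8 and 18.7 TPM in siCtrl libraries. Those groups did not overlap (log2 change -0.35, SE 0.124, adjusted p = 0.0903).

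**Figure D3:**
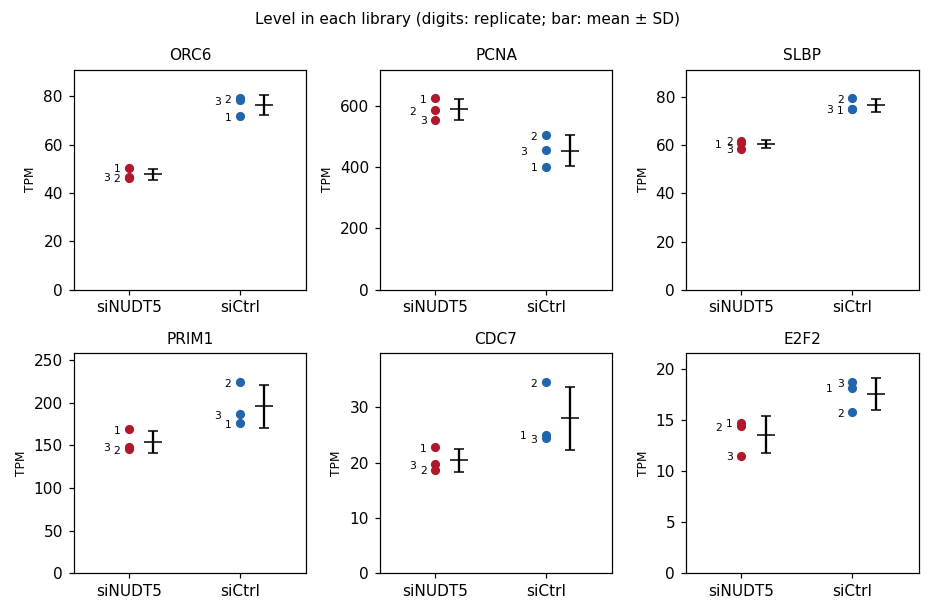
TPM per library (vertical axes) for ORC6, PCNA, SLBP, PRIM1, CDC7 and E2F2, with the 3 siNUDT5 libraries left of the 3 siCtrl libraries in each panel, replicate numbers beside the points and bars for mean ± SD. PCNA is higher, and ORC6 and SLBP are lower, in each siNUDT5 library than in any siCtrl library.

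In several of these genes 1 siCtrl library set the spread. siCtrl 2 was the highest siCtrl library in 30 of the 50 genes, the lowest in 16 and between the others in 4. Over all tested genes it was the highest in 50% and the lowest in 39.8%. Its deviation from the mean of siCtrl 1 and 3, in log2 units, had a median size of 0.21 in the members and 0.26 over all genes, and reached 0.72 in ORC4.

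That deviation went with the GC content of the transcript. Among the 33 members with at most 50% GC, siCtrl 2 was the highest siCtrl library in 28 and the lowest in 3. Among the 17 members above 50% GC it was the highest in 2 and the lowest in 13. Across the 50 genes, Pearson's r between the deviation and the GC percentage was -0.917 (Spearman's rho -0.924), and across 11567 genes with a GC value r was -0.805. The points are genes of the same libraries and are not independent. The members' GC content ran from 37.7 to 65.0%, with a median of 45.7%. Among the siNUDT5 libraries, each set against the mean of the other 2, r over the members was -0.625 for siNUDT5 1, 0.832 for siNUDT5 2 and -0.411 for siNUDT5 3. The median sizes of those deviations were smaller, at 0.070, 0.092 and 0.070.

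**Figure D4:**
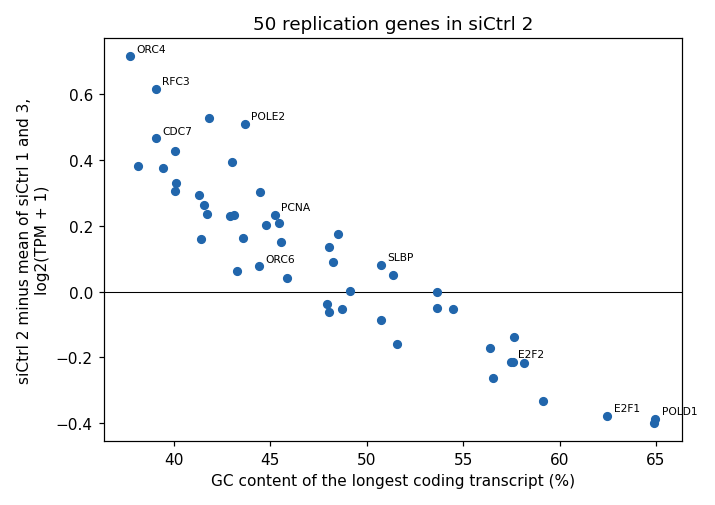
Log2 deviation of siCtrl 2 from the mean of siCtrl 1 and 3 (vertical axis) against the GC percentage of the longest coding transcript (horizontal axis), for the 50 replication genes. GC-poor members such as ORC4, at 0.72, lie above 0 and the most GC-rich members lie below it, with r = -0.917.

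Given this departure, the fit was repeated after subtracting, in each library, a smooth curve of the genes' deviations against GC content. That alternative was chosen after the data had been seen. It charges no degree of freedom for the curve, so its p-values are too small by an unknown amount. In it 21 of the 50 genes passed (42.0%), 2 higher and 19 lower, against 40.8% of 11567 genes, 20.8% higher and 20% lower. The members' share called was thus near that of all genes, while their calls lay mostly on the lower side. Their median log2 change was -0.09, beside -0.005 over all genes, and their median standard error was 0.051.

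PCNA (log2 change 0.36) and POLD3 (0.20, adjusted p = 0.0154) rose in the GC-corrected fit. ORC6 had the largest negative change among the members, at -0.68, followed by E2F2 at -0.47, CDC7 at -0.40, SLBP at -0.40, POLE2 at -0.36, CLSPN at -0.33 and PRIM1 at -0.32. All 7 passed, with adjusted p between 1.42e-05 and 0.00482. The other 12 that fell were ORC5, RPA2, MCM6, MCM10, POLE, FEN1, CDT1, CHAF1B, DBF4, MCM3, POLD1 and TIPIN, with log2 changes between -0.28 and -0.14. By role, 3 of 9 licensing genes, 2 of 6 MCM2-7 genes, 3 of 8 activation genes, 4 of 9 polymerase and primase genes, 2 of 3 fork factors, 2 of 3 chromatin assembly genes, 1 of 3 RPA genes and 1 of 2 E2F genes fell. In the clamp group 1 of 7 fell (FEN1) and 1 rose (PCNA).

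**Figure D5:**
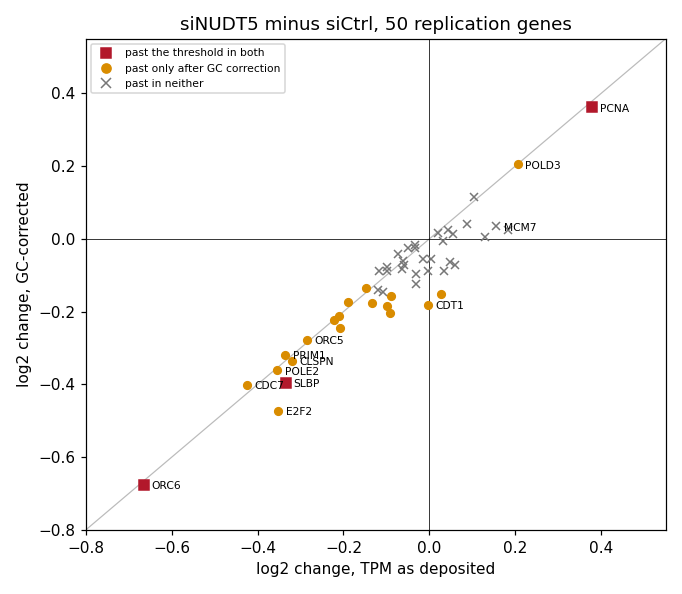
Log2 change, siNUDT5 minus siCtrl, after the GC correction (vertical axis) against the log2 change without it (horizontal axis) for the 50 replication genes. ORC6, PCNA and SLBP passed in both fits, and 18 more members passed after the correction, of which POLD3 was the only one that rose.

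Leaving out siCtrl 2 instead gave 6 members past the threshold, against 31.1% of all tested genes. PCNA and POLD3 rose, where 21.8% of all genes did, and ORC6, SLBP, PRIM1 and E2F2 fell, where 9.29% did. Over the 17 ways of fitting the data that were run, the one reported first included, ORC6 passed in 17, SLBP in 12 and PCNA in 9. The fits share the same libraries and several differ little, so such counts are not independent checks. They include the GC-corrected fits, whose p-values are too small.

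The genes around the machinery were taken from a list of 66 further replication genes (among them cyclins, nucleotide synthesis enzymes, the other E2Fs, further polymerase subunits, nucleases and histone chaperones), of which 63 were in the table and tested. Of these 63, 2 rose and 7 fell in limma, which is 14.3%, near the 16.1% of all tested genes. Their calls lay mostly on the lower side, while 10.9% of all tested genes were higher and 5.2% lower. CCNE1, which encodes cyclin E1, the partner of CDK2 at the G1/S transition, had 189, 186 and 174 TPM in siNUDT5 libraries, against 102, 113 and 111 TPM in siCtrl libraries. No siNUDT5 library came near the siCtrl range (log2 change 0.75, SE 0.079, limma adjusted p = 0.0012). POLD4, the small subunit of polymerase delta, had 33.0, 39.9 and 35.2 TPM in siNUDT5 libraries, against 29.1, 19.5 and 24.8 TPM in siCtrl libraries (log2 change 0.55, adjusted p = 0.037).

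E2F5, which encodes a repressor E2F, averaged 4.46 ± 0.27 TPM in siNUDT5 and 8.63 ± 1.69 TPM in siCtrl (SD, n = 3 each; log2 change -0.81, limma adjusted p = 0.00749). E2F3, an activator E2F, averaged 23.2 ± 1.82 TPM in siNUDT5 and 32.1 ± 4.38 TPM in siCtrl (SD, n = 3 each; log2 change -0.45). RNASEH2B, a subunit of the nuclease that removes ribonucleotides from DNA, fell by 0.55 on the log2 scale. KIAA0101, an older symbol for the PCNA-associated factor PCLAF, averaged 161 ± 6.98 TPM in siNUDT5 and 218 ± 33.6 TPM in siCtrl (SD, n = 3 each; log2 change -0.42, limma adjusted p = 0.0355). DNMT1, the maintenance methyltransferase at the fork, and CDC25A, the phosphatase that activates CDK2, fell by 0.39 and 0.35. TYMS, which makes thymidylate, averaged 892 ± 33.0 TPM in siNUDT5 and 1094 ± 44.6 TPM in siCtrl (SD, n = 3 each; log2 change -0.29, limma adjusted p = 0.0209). All 9 kept their direction when any 1 library was left out. CCNE1 and E2F5 passed in each of the 17 fits, RNASEH2B, DNMT1 and CDC25A in 12, E2F3 and TYMS in 11, and POLD4 in 9. KIAA0101 passed in 8 of the 15 fits that included it. Of these 9, only POLD4 no longer passed under median-ratio scaling and quantile normalization (adjusted p = 0.0725 and 0.0879 by limma).

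Short words in the 3' UTR were also counted. The words AAGACTT and AGACTTA came from an earlier analysis that picked them on these same log2 changes, so their association with lower genes is not independent. They stood in the 3' UTR of 9 members (18.0%), which were ORC4, ORC6, CDC6, MCM6, GINS2, CDC7, RFC5, CLSPN and WDHD1, and in 22.5% of 11454 tested genes with a 3' UTR of at least 50 bases. The 9 holders had a median log2 change of -0.12, beside -0.06 in all 50 members and -0.008 in all holders. ORC6, CDC6, GINS2, CDC7 and CLSPN held both words, with log2 changes of -0.67, -0.06, 0.09, -0.42 and -0.32. PCNA and SLBP held neither word. A further word counted, GATTAAC, stood in 2 members (4.0%), GINS4 and POLD3, and in 6.19% of those tested genes. It was counted as a word of higher genes, and its holders had a median log2 change of 0.14 over all tested genes. Whether it was picked on these same log2 changes is not stated, so that median is not taken as independent either. Whether these words have a part in the changes was not tested.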

How the data were processed

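The deposited table holds TPM per gene symbol for 6 libraries, computed by the authors before deposit. STAR 2.7.3a, DESeq2 1.22.1 and hg19 are named, without roles, in the submitters' processing notes. For the quantifier, annotation and strand setting no source used here gives a name. Groups were taken from the sample titles. Genes averaging 1 TPM or more were tested on log2(TPM + 1) in limma 3.58.1 (R 4.3.3), using lmFit and eBayes with a trend, with Benjamini-Hochberg adjustment over all tested genes. Log2 changes are on that scale and understate changes of low genes. The fit was tested on simulated data. Tables were made with Python 3.11.15, numpy 2.4.6, pandas 2.3.3 and scipy 1.17.1, and figures with matplotlib 3.10.9. GC content came from the longest coding transcript in GENCODE 29, by symbol, and the GC curve used a loess span of 0.5. The 3' UTR was the longest one annotated in any coding transcript of the symbol. The members and lists were chosen with earlier results of these data known. Genes are named if they passed, or had the highest level or the largest or smallest change in their role, with up to 8 further replication genes. MCM10, FEN1, RPA3, CHAF1B, POLD3, ORC5, PRIM1, TYMS and other members outside that rule were named after their values were seen. The ATAC-seq data of the series were not analysed here. UHRF1, PCLAF and RTF2 were listed and not matched by those symbols.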

Additional observations from a re-analysis of the deposited data

How the results depend on the processing

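Counts of genes past the threshold are given as higher and lower in siNUDT5, and each log2 change is siNUDT5 minus siCtrl. For the 50 replication genes they were 0 and 2 with no filter or no trend, 1 and 8 under median-ratio scaling and under quantile normalization, and unchanged at 1 and 2 under pseudocounts of 0.1 and 5 and a minimum mean of 5 TPM. The 8 lower genes under both scalings were ORC6, SLBP, CDC7, CLSPN, MCM10, MCM6, PRIM1 and RPA2. These scalings moved the median log2 change of all genes to -0.003 and -0.007, and that of the members to -0.11 in both. For all genes the counts were 1040 and 895 under median-ratio scaling and 1018 and 965 under quantile normalization, against 1334 and 636 of 12236 as reported. With no filter they were 1126 and 533 of 16903 genes. Pseudocounts of 0.1 and 5 gave 1311 and 620, and 1360 and 641, of 12236 genes. The 63 other replication genes gave 1 and 11 under both scalings and 1 and 5 with no filter. GC correction, chosen after seeing the data, gave 2405 and 2310 of 11567 genes (20.8% and 20%). It gave 2 and 19 of 50 members (4% and 38%) and 6 and 27 of 61 other replication genes (9.84% and 44.3%).

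Correlations of deviations between same-numbered libraries were -0.43, -0.54 and -0.04, and none of the siNUDT5 libraries correlated best with its own number. The deviations also went with GC content. Over all genes r was -0.478, 0.571 and -0.0972 for siNUDT5 1 to 3, and 0.772, -0.805 and 0.477 for siCtrl 1 to 3. Such correlations therefore cannot tell whether libraries of the same number share a culture or batch. With a replicate block the counts were 486 and 253 of all genes, 0 and 1 members (ORC6), and 1 and 1 other replication genes. GC correction with replicate block gave 1960 and 1837, 2 and 14, and 4 and 22.

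Without 1 library in turn, the counts of all genes ranged from 521 to 2665 higher and from 212 to 1137 lower, those of members from 0 to 2 and from 1 to 4, and those of other replication genes from 1 to 7 and from 1 to 12. Both highest counts of all genes came without siCtrl 2. The members' median ranged from -0.10 to -0.02.

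Signs turned only in members that did not pass as reported. Under median-ratio scaling 8 of 50 turned and under quantile normalization 7: CHAF1A (-0.020 and -0.023), POLD1 (-0.026 and -0.029), RPA1 (-0.00031 and -0.012), ORC1 (-0.049 and -0.052), GMNN (-0.033 and -0.033), GINS4 (-0.023 and -0.026), RFC4 (-0.011 and -0.019) and, under median-ratio scaling alone, MCM5 (-0.0061). Under GC correction, with or without the block, 6 turned: CHAF1A (-0.087), POLD1 (-0.15), POLD2 (-0.072), MCM5 (-0.063), ORC1 (-0.056) and GINS4 (-0.0068). Without 1 library, the range crossed 0 in 20 of 50, among them 14 that turned without siCtrl 2. These were CDT1 -0.14 to 0.088, CHAF1A -0.025 to 0.077, WDHD1 -0.22 to 0.010, MCM4 -0.074 to 0.044, POLD2 -0.050 to 0.12, POLD1 -0.10 to 0.098, RFC2 -0.036 to 0.032, CDC45 -0.096 to 0.074, and ORC1, ORC2, ORC3, ORC4, GMNN, MCM5, POLA1, POLA2, PRIM2, RFC3, RFC4 and RFC5, of which ORC4 had the widest range (-0.23 to 0.17). The causes were not tested. Read totals are not given, so counting error per gene is unknown.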
